A study of Mus musculus with 12 samples.

Results

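Reactive astrocytes are recognised by a small set of transcripts, of which 9 are described here: the intermediate filament genes Gfap, Vim, Nes and Synm, and the secreted, surface and enzyme genes Serpina3n, Timp1, Cd44, S1pr3 and Aspg. The members were taken by symbol from the deposited tables, which hold 40853 symbols, and all 9 were found. The libraries came from microglia and astrocytes sorted by flow cytometry from whole brains of 6 mice. The mice were 8 to 9 weeks old and either wild type (WT) or labelled as KPNA4 knockout (KO), which lacks the nuclear import adaptor importin α4. LPS, the endotoxin of Gram-negative bacteria, which sets off systemic inflammation, was injected intraperitoneally at 1 mg/kg into all of them, controls included, 20 h before dissection. Both cell types of both genotypes had 3 libraries, which makes 4 groups, and each animal gave 1 library of each cell type. Mice without LPS were not analysed here, so no level can be read as induced by it. The labels give neither the deleted part of the gene nor the antibodies used for sorting.

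Astrocytes answer injury and inflammation by enlarging their cytoskeleton of intermediate filaments. GFAP and vimentin polymerise into filaments, while nestin and synemin join them as larger partners that do not form filaments well by themselves. The same cells secrete protease inhibitors and place receptors for matrix and lipid signals on their surface, and STAT3 and NF-κB are well known as regulators of this programme. Several of these genes are not confined to astrocytes: Vim is active in many cell types of the vessel wall and in immune cells, Nes in dividing progenitors and endothelium, Synm in smooth muscle, and Cd44 in leukocytes.

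Totals ran from 10.3 M to 14.5 M counts in the microglia and from 10.7 M to 15.6 M in the astrocyte libraries. Of these counts 8 abundant non-coding transcripts held 11.8% to 15.4% in microglia and 26.2% to 39.5% in astrocytes. Levels scaled to the totals are thus lowered more in astrocytes than in microglia. Summed over 13 astrocyte markers such as Aqp4 and Aldh1l1, the level was 19500 to 25600 CPM (counts scaled to a common library total) in the astrocyte libraries and 372 to 797 CPM in the microglia libraries. Summed over 11 microglia markers such as Cx3cr1 and P2ry12, it was 16700 to 20900 CPM in microglia and 164 to 615 CPM in astrocytes. Kpna4 itself was detected in every library, with means of 84.4 ± 14.8 CPM for WT and 69.0 ± 9.41 CPM for KO microglia (SD, n = 3), and of 49.6 ± 8.81 and 64.4 ± 18.6 CPM for WT and KO astrocytes. These whole-gene counts do not check the genotype labels, since the deleted part is unknown here.

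The promoters of Gfap, Vim and Serpina3n are shown because these 3 genes had the highest levels per length in astrocytes. They were also all highest in the same 2 astrocyte libraries, which Synm shared. The 250 bases before the RefSeq start site of the GRCm38.p6 table are given 5′ to 3′ on the gene's strand, at chr11:102897201-102897450 (minus strand) for Gfap, chr2:13574061-13574310 (plus strand) for Vim and chr12:104406458-104406707 (plus strand) for Serpina3n. Capitals mark matches to a searched motif.
Gfap: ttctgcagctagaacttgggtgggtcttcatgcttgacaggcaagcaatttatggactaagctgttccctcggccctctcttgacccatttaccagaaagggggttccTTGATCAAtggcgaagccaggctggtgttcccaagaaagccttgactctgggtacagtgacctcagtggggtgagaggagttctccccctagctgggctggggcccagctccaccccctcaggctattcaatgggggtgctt
Vim: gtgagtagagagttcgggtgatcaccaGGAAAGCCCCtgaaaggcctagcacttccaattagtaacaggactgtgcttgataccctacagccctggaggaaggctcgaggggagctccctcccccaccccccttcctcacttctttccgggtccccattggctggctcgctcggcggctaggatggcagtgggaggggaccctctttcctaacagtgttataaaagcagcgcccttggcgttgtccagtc
Serpina3n: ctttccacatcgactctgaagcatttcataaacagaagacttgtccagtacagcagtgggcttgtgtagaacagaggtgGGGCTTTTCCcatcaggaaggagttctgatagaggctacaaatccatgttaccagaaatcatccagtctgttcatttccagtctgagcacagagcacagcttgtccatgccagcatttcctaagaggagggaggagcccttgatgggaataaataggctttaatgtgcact

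All 9 members matched the promoter table, and 4 motifs were searched on both strands. The NF-κB pattern, GGG and TTTCC with 2 bases between them, was found in Vim, where the match GGAAAGCCCC lies on the opposite strand and begins 223 bases before the start, and in Serpina3n, where GGGCTTTTCC begins 171 bases before it. Of 32851 promoter windows of the same length 1.41% held this pattern. The C/EBP pattern TTGNNNAA was found in Gfap, 142 bases before the start, and in Timp1, and 33.3% of all windows held it. The STAT pattern TTCNNNGAA and the AP-1 pattern TGANTCA were in none of the 9 windows, against 7.02% and 6.75% of all windows. The matches did not overlap each other, and they describe letters in a window, not binding.

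Among the filament genes, Gfap stood at 540, 413 and 755 CPM in the WT astrocyte libraries (replicates 1, 2 and 3) and at 590, 560 and 838 CPM in the KO astrocyte libraries. In microglia it stood at 23.6, 13.9 and 39.7 CPM in WT and at 5.14, 14.6 and 10.5 CPM in KO. Every astrocyte library was above every microglia library, while WT and KO overlapped in both cell types. Vim, the filament protein of mesenchymal and glial cells, was at 375, 505 and 627 CPM in WT and 586, 419 and 781 CPM in KO astrocytes. Its microglia libraries held 33.3, 22.0 and 23.7 CPM in WT and 25.5, 20.3 and 25.7 CPM in KO. The cell types were again fully apart in Vim, and the genotypes overlapped.

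Synm, whose product synemin links filaments to membrane complexes, was at 123, 158 and 233 CPM in WT and 145, 118 and 173 CPM in KO astrocytes. In microglia it was at 13.7, 14.3 and 20.0 CPM in WT and 4.36, 6.02 and 6.40 CPM in KO. Synm was the single member with the genotypes fully apart in a cell type, the 3 KO microglia libraries being the lowest of the 12. Over all genes tested the genotypes stood apart in 13.1% in microglia and in 8.13% in astrocytes. Nes, the nestin gene, was at 40.6, 83.1 and 70.6 CPM in WT and 45.6, 43.9 and 62.0 CPM in KO astrocytes. In microglia Nes was at 28.6, 10.6 and 9.05 CPM in WT and 10.8, 5.44 and 7.78 CPM in KO, so that WT replicate 1 stood well above the other 5.

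Serpina3n encodes a secreted inhibitor of serine proteases and is one of the strongest transcripts of reactive astrocytes. It was at 280, 317 and 572 CPM in WT and 430, 402 and 690 CPM in KO astrocytes. Its microglia values were 5.20, 3.05 and 19.2 CPM in WT and 4.65, 9.20 and 13 CPM in KO, with overlap between the genotypes in both cell types. Its 10 paralogs of the same cluster share sequence with it, and reads could be divided among them. The paralogs held 48 counts in all 6 microglia libraries together and 30 in the 6 astrocyte libraries, against 702 and 36285 counts for Serpina3n, and no value of any member was changed by rounding to whole counts.

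Timp1, a secreted inhibitor of metalloproteinases, was low in astrocytes, at 4.82, 6.51 and 4.51 CPM in WT and 4.93, 1.3 and 5.59 CPM in KO. Of the 6 microglia libraries only WT replicate 3 held any count of it, 23 counts or 1.75 CPM, which lay above KO replicate 2 of the astrocytes. A count of 0 allows up to 3 counts in a library, or 0.207 to 0.291 CPM in microglia. Cd44, the surface receptor for hyaluronan, was at 15.4, 25.0 and 21.0 CPM in WT and 17.5, 12 and 16.7 CPM in KO astrocytes. In microglia Cd44 was at 14.2, 9.69 and 9.28 CPM in WT and 12.3, 6.78 and 8.68 CPM in KO. The ranges of the cell types overlapped on these totals. With the 8 abundant non-coding transcripts left out of the totals, the Cd44 means were 28.9 and 22.5 CPM in WT and KO astrocytes. In microglia they were then 12.8 and 10.7 CPM, and overlap was not read on those totals.

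S1pr3, a receptor for sphingosine 1-phosphate, was at 27.1, 23.8 and 42.5 CPM in WT and 37.5, 24.6 and 36.1 CPM in KO astrocytes. It had 9 counts in microglia WT replicate 1, 5 in KO replicate 3 and 0 in the other 4 microglia libraries. Aspg, which encodes an asparaginase, was at 8.20, 5.20 and 9.16 CPM in WT and 3.83, 3.44 and 8.15 CPM in KO astrocytes. In microglia 4 counts of Aspg in WT replicate 3 and 3 in KO replicate 1 were all that was seen.

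**Figure D1:**
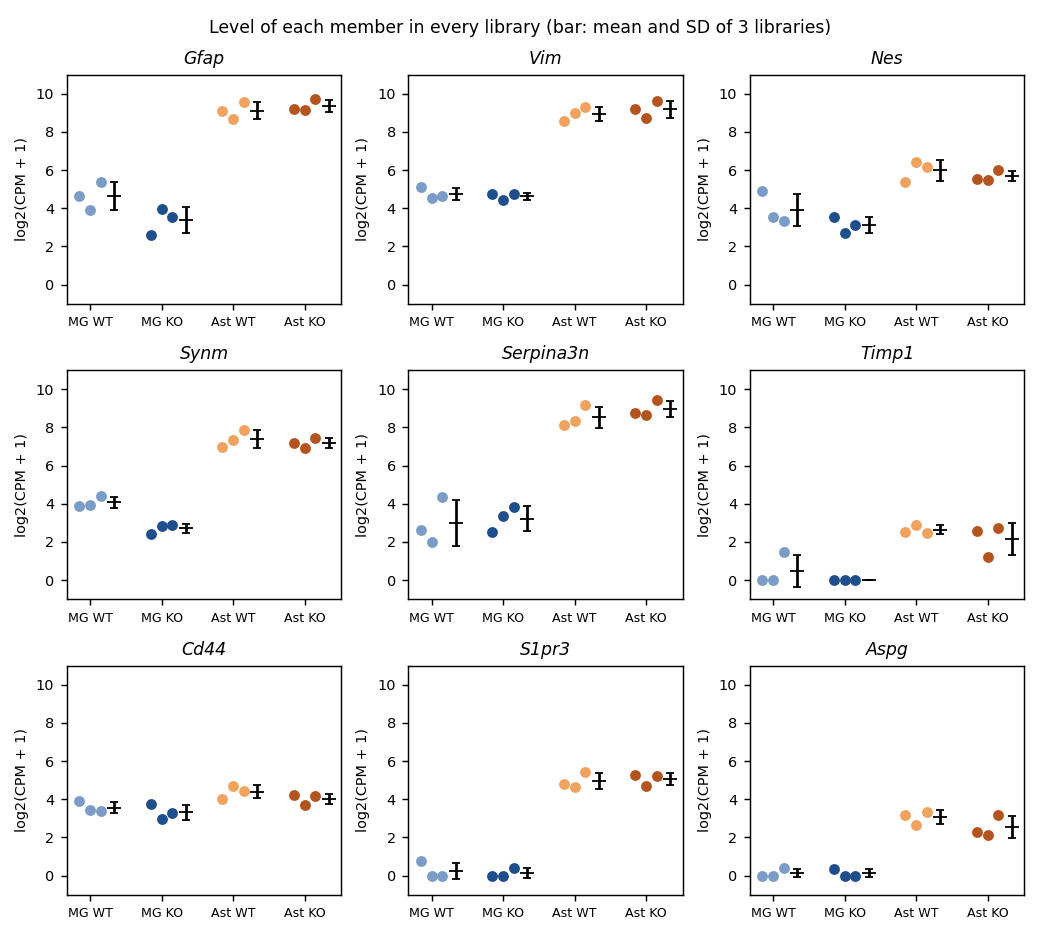
Level of each of the 9 members in every library as log2(CPM + 1), for microglia (MG) and astrocytes (Ast) of WT and KO mice; points are libraries and bars the mean and SD of 3. On whole library totals the cell types do not overlap in Gfap, Vim, Nes, Synm and Serpina3n, with the narrowest gap in Nes, and overlap in Cd44 and Timp1. S1pr3 and Aspg are also apart, but passed the low-count filter through astrocytes alone. The share of all genes without overlap of the cell types was not computed. Synm in microglia is the 1 case in which the genotypes do not overlap, where 6.57% of all genes stand apart with KO below WT.

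Levels of different genes were compared only per kb of exon length (CPM per kb, exon union of GENCODE M21, an annotation of another build than the authors'). In the 6 astrocyte libraries Serpina3n was highest at 217 ± 75.6 CPM per kb (SD, n = 6), followed by Gfap at 146 ± 36.6 and Vim at 116 ± 31.3. The ranges of these neighbours overlapped, though Serpina3n was above Gfap in 6 of 6 libraries and Gfap above Vim in 5 of 6. Synm at 19.9 ± 5.30 and Nes at 8.98 ± 2.66 CPM per kb were apart from Vim and from each other. Below them S1pr3 (7.16 ± 1.75), Timp1 (5.19 ± 1.99), Cd44 (2.65 ± 0.670) and Aspg (1.80 ± 0.704 CPM per kb) each overlapped with their neighbour in the order.

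In microglia the order by mean put Vim first at 5.29 ± 0.955 CPM per kb, then Serpina3n at 4.38 ± 2.97 and Gfap at 4.25 ± 2.91. However, Vim was above Serpina3n in only 3 of 6 libraries and Serpina3n above Gfap in 3 of 6, so these 3 are not ordered. Nes, Cd44 and Synm followed at 1.88 ± 1.3, 1.5 ± 0.393 and 1.36 ± 0.775 CPM per kb, with Nes above Cd44 in 3 of 6 libraries. The ranges of each pair of neighbours overlapped in microglia. By mean, Cd44 stood 8th of the 9 in astrocytes and 5th in microglia.

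Astrocytes were compared with microglia in the fit of all 12 libraries. Of the 6 members that passed the low-count filter within each cell type, edgeR called 6 higher in astrocytes, against 31.8% of the 13088 genes that did so (over all 17294 genes tested, 36.4% were called higher and 64.6% in either direction). The other 3 members, Timp1, S1pr3 and Aspg, entered this fit through the astrocyte libraries alone, so that their calls add nothing to that count. In bulk libraries fewer cells of a type and less RNA per cell cannot be told apart.

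The largest difference among the 6 was that of Serpina3n, with a log2 fold change of 5.88 (edgeR adjusted p 2.73e-08, SE 0.44). Gfap followed at 5.52 (SE 0.32, edgeR adjusted p 2.07e-09), Vim at 4.71 (SE 0.21, edgeR adjusted p 1.98e-10) and Synm at 4.33 (SE 0.20, edgeR adjusted p 2.77e-10). Nes and Cd44 differed far less, by 2.60 (SE 0.33, edgeR adjusted p 6.10e-06) and 1.08 (SE 0.26, edgeR adjusted p 0.00214) on the log2 scale. Astrocytes were higher in 6 of 6 animals for each of these genes, as a description, since the share of all genes that did so was not counted. Taken within WT and within KO, the difference was 4.61 and 6.43 for Gfap, 3.57 and 5.08 for Synm and 2.13 and 3.06 for Nes. Markers of several other cell types were also higher in the astrocyte libraries. In WT the 7 pericyte and smooth muscle markers summed to 267 CPM in astrocytes and 24.6 CPM in microglia, the 5 fibroblast markers to 113 and 13.7 CPM, and the 5 ependymal markers to 448 and 9.29 CPM. The 5 neural stem and immature cell markers summed to 159 and 8.88 CPM, with Egfr alone at 115 and 4.38 CPM. The 5 oligodendrocyte precursor markers were at 118 and 11.6 CPM, the 6 oligodendrocyte markers at 2190 and 874 CPM and the 6 neuron markers at 72.4 and 14.4 CPM. The 7 endothelial markers differed less, at 87.5 CPM in WT astrocytes and 58.4 CPM in WT microglia. Lower in WT astrocytes were choroid plexus (769 against 1410 CPM), border macrophage (9.89 against 193) and peripheral myeloid markers (9.15 against 13.1). The part of these other cells in the Vim, Synm and Nes differences was not tested. The Cd44 call was lost without WT replicate 2, at 0.75 and an edgeR adjusted p of 0.0509.

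For the 3 members near 0 in microglia the summed counts give the size more directly. S1pr3 had 2560 counts in astrocytes and 14 in microglia, a ratio per library total of 172 (95% counting interval 103 to 316). Aspg had 521 against 7 counts, a ratio of 70.1 (33.8 to 175). Timp1 in WT had 213 against 23 counts, a ratio of 8.52 (5.53 to 13.7), and in KO it was at least 51.2-fold higher in astrocytes, taking 3 counts over the group as the floor. The fitted values, given as a description since the filter fixed their direction, were 7.66 for S1pr3, 6.15 for Aspg and 6.07 for Timp1 on the log2 scale. That of Timp1 depends on the prior count, because its KO microglia are all at 0. Within WT alone it was 3.35 and was not called (edgeR adjusted p 0.0685). Leaving out 1 of the animals that held the microglia counts moved S1pr3 to 10, Aspg to 7.72 and Timp1 to 8.97 at the highest.

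The microglia level of a gene can be set against that of the same animal's astrocytes. Both are CPM of whole library totals, which the abundant non-coding transcripts lower more in astrocytes. Within an animal this raises the percentage of every gene by the same factor. For the 13 astrocyte markers the median over 6 animals was 0.939% to 4.41%, with a median of 1.3% over the markers. Serpina3n at 1.87%, Gfap at 2.99% and Vim at 4.35% lay within this range. Synm at 6.86%, Nes at 12.8% and Cd44 at 54.2% lay above it. The astrocyte markers are thus themselves present in the microglia libraries at low level, and the part that such RNA has in the members' microglia values was not tested.

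**Figure D2:**
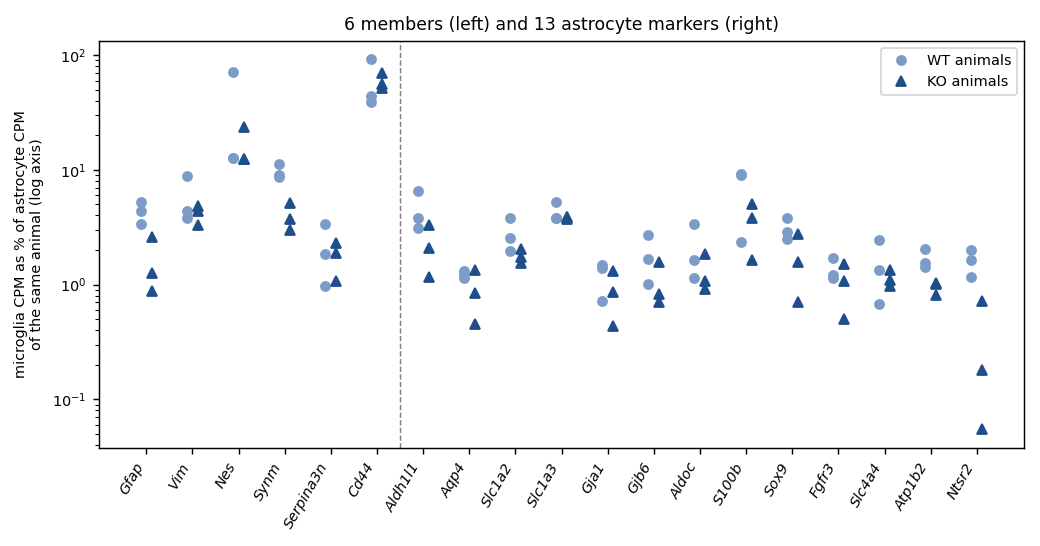
Microglia CPM as a percentage of the astrocyte CPM of the same animal, on a log axis, for the 6 members counted in all microglia libraries and for 13 astrocyte markers; circles are WT and triangles KO animals. Cd44 (38.7% to 92.1%) and Nes (12.4% to 70.6%) stand above the markers, whose medians reach 4.41%, while Gfap and Serpina3n lie among them.

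KO and WT were compared within each cell type, which asks whether the loss of importin α4 changes these genes after LPS. In astrocytes edgeR called 0 of the 9 members, and 0 of 15755 genes (0%). Serpina3n had the smallest p. Its means were 390 ± 159 CPM for WT and 507 ± 159 CPM for KO astrocytes (SD, n = 3), and KO over WT came to 0.51 on the log2 scale (SE 0.27, 95% interval -0.08 to 1.09, edgeR unadjusted p 0.0827, adjusted 0.999). Leaving out 1 library moved it from 0.29 (without KO replicate 3) to 0.82 (without WT replicate 3, edgeR unadjusted p 0.00866, adjusted 0.999). Gfap and Vim both had a log2 fold change of 0.35, with intervals of -0.14 to 0.84 and -0.15 to 0.84. With 1 library left out Gfap ran from 0.19 (without WT replicate 2) to 0.54 (without WT replicate 3, edgeR unadjusted p 0.0477), and Vim from 0.16 (without KO replicate 3) to 0.48 (without WT replicate 3). Synm at -0.12 (-0.62 to 0.38) and Nes at -0.25 (-0.87 to 0.37) had the opposite sign. None of the 9 members reached an unadjusted p under 0.05 in astrocytes, where 2.37% of all genes did, and in none did the genotypes stand apart, against 8.13% of all genes (5.74% with KO below WT and 2.39% with KO above).

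Among the other members in astrocytes, S1pr3 had a log2 fold change of 0.19 (95% interval -0.39 to 0.76) and Cd44 of -0.31 (-1.01 to 0.38). The low counts of Timp1 and Aspg gave -0.38 (-1.87 to 1.11) and -0.44 (-1.64 to 0.76). These intervals leave room for changes of more than 1 log2 unit in Timp1 and Aspg. For the other 7 members the bounds lay between -1.01 (Cd44) and 1.09 (Serpina3n), so these 2 also reached just past 1 log2 unit.

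In microglia 6 members could be tested, and edgeR called 0 of them and 0 of 14191 genes (0%). All 6 log2 fold changes were below 0, from -0.03 to -1.53, as were those of 7112 of the 14191 genes. Their median was -0.67 for the 6 members, beside -0.00 over all genes. An unadjusted p under 0.05 with the lower level in KO was reached by 3 of the 6, Synm, Gfap and Nes, against 5.07% of all genes (7.42% in either direction). The 3 genes are filament genes, and the fourth, Vim, was at -0.17 (95% interval -0.74 to 0.39). Serpina3n at -0.03 (-1.30 to 1.24) and Cd44 at -0.29 (-1.11 to 0.53) did not pass either.

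Synm had a mean of 16 ± 3.48 CPM in WT and 5.60 ± 1.09 CPM in KO microglia (SD, n = 3). KO over WT came to -1.53 on the log2 scale (SE 0.36, 95% interval -2.30 to -0.76, edgeR unadjusted p 7.93e-04, adjusted 0.439). Its KO libraries lay below its WT libraries without overlap, as did those of 6.57% of all genes, while 6.53% stood apart with KO above. DESeq2 gave an adjusted p of 0.031 and the fit of all 12 libraries one of 0.0289, so the call depends on the tool and on the libraries fitted. Gfap had means of 25.7 ± 13 and 10.1 ± 4.76 CPM, or -1.36 on the log2 scale (SE 0.42, 95% interval -2.27 to -0.46, edgeR unadjusted p 0.00610, adjusted 0.551). Nes had means of 16.1 ± 10.9 and 7.99 ± 2.67 CPM and a log2 fold change of -1.05 (SE 0.47, edgeR unadjusted p 0.0407, adjusted 0.652). Without WT replicate 1 the Nes value was -0.32 (edgeR unadjusted p 0.49), and without WT replicate 3 the Gfap value was -0.93 (edgeR unadjusted p 0.0501). The Nes p was also above 0.05 without KO replicate 2 (0.128) or KO replicate 3 (0.0811). Synm stayed between -1.36 and -1.63 with any 1 replicate left out, at edgeR adjusted p of 0.269 to 0.938.

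The marker lists were read in the same microglia libraries. Summed over 13 astrocyte markers, the level was 604, 372 and 797 CPM in WT and 404, 420 and 401 CPM in KO, and 13 of the 13 markers had the lower mean in KO. The sum of 5 ependymal markers was 6.56 to 11.3 CPM in WT and 3.88 to 5.52 CPM in KO, and that of 5 fibroblast markers 10.9 to 18.2 and 6.61 to 10.3 CPM. In both of these lists the genotypes did not overlap (2-sided exact permutation p 0.1, the smallest that 3 against 3 allows, and 0.933 after adjustment over 28 tests). The sums of 7 pericyte and smooth muscle markers were 17.1 to 29.6 CPM in WT and 6.02 to 20.8 CPM in KO, and those of 7 endothelial markers 21.6 to 81.4 and 22.7 to 31.5 CPM. The largest sum of these was that of 5 choroid plexus markers, at 884, 1110 and 2230 CPM in WT and 356, 551 and 902 CPM in KO, with 5 of 5 lower on average in KO and with overlap. The 6 oligodendrocyte markers summed to 615, 276 and 1730 CPM in WT and 400, 314 and 775 CPM in KO, also with overlap. Each gene of these lists was counted in at least 1 microglia library, so none was at 0 throughout. The part of these cells in the lower Synm, Gfap and Nes values was not tested.

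**Figure D3:**
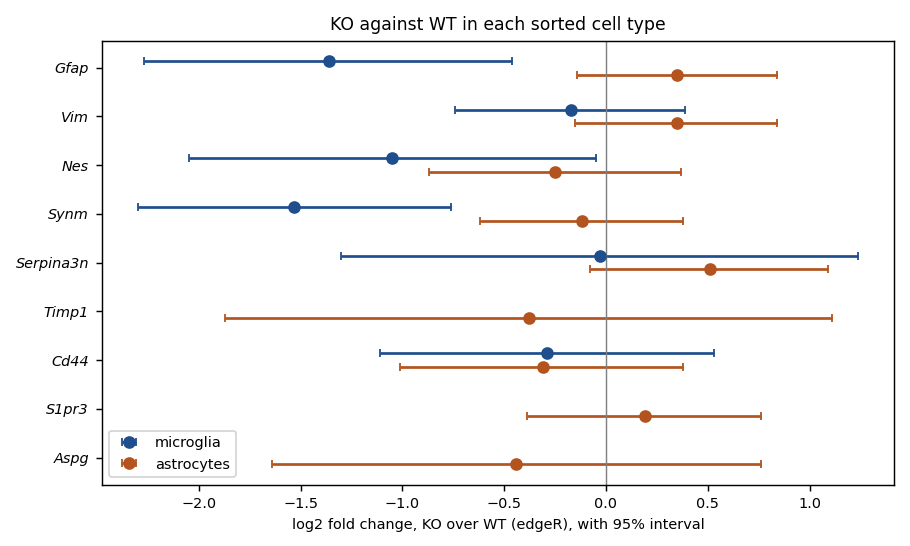
Log2 fold change of KO over WT for each member with its 95% interval from the edgeR fit, in microglia (6 members tested) and astrocytes (9 members). In microglia the intervals of Gfap, Nes and Synm lie below 0, though no adjusted p passes, and in astrocytes each interval includes 0.

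Whether KO acts differently in the cell types was tested as an interaction, the log2 fold change in astrocytes minus that in microglia. None of the 9 members was called, as none of 17294 genes was (0%). Synm had a difference of 1.51 (SE 0.36, edgeR unadjusted p 7.79e-04, adjusted 0.321) and Gfap one of 1.82 (SE 0.54, edgeR unadjusted p 0.00465, adjusted 0.496). The median over all genes in this fit was 0.16, and 6.37% of all genes had an unadjusted p under 0.05. Timp1 also had an unadjusted p under 0.05, at 0.0403, but its value of 5.44 depends on the prior count and turned to -0.53 without WT replicate 3, the library with its 23 microglia counts. Vim at 0.63, Nes at 0.93 and Serpina3n at 0.64 had edgeR adjusted p of 0.854 to 0.983.

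Among the astrocyte libraries some members varied alike. WT replicate 3 and KO replicate 3 were the highest 2 of the 6 libraries in Gfap, Vim, Synm and Serpina3n. These 2 libraries also had the largest totals, 14.6 M and 15.6 M counts. The 8 abundant non-coding transcripts took 26.3% and 30.7% of their counts, in a range of 26.2% to 39.5% over the astrocyte libraries. A larger share lowers the CPM of all other genes in a library together. It was largest in KO replicate 2, which was below the mean in each member. The part of depth, of this share or of a shared batch in this and in the correlations below was not tested. Gfap and Serpina3n correlated over the 6 libraries, on log2(CPM + 1), with Pearson's r of 0.89 and Spearman's rho of 0.94 (exact permutation p 0.0278 and 0.0167). Without the 2 libraries farthest from the median of Gfap r was 0.88. After adjustment over the 8 relations of Gfap with the other members the p of r was 0.222, so that none passed.

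S1pr3 had the next highest r with Gfap at 0.80 and Vim the third at 0.69 (exact permutation p 0.0556 and 0.128). Nes, Timp1 and Cd44 had r of -0.02, -0.00 and -0.22 with Gfap over the same libraries. Without the 2 libraries farthest from the median of Gfap, r was 1.00 for Nes, 0.29 for Timp1 and 0.80 for Cd44. Synm moved likewise, from 0.53 over all 6 libraries to 0.99. The values over all 6 thus rest on those 2 libraries, and the values without them rest on very few points. Nes and Cd44 had an r of 0.84 with each other, as a description, and both were highest in WT replicate 2, where Gfap was lowest. Among 9147 genes of at least 10 CPM, those most like Gfap were Ftsj3, Fbn1 and Vasn, with r of 0.997, 0.996 and 0.995 over the 6 libraries. Those most like Serpina3n were Thbs1, Entpd1 and Cnnm3, with r of 0.987, 0.982 and 0.980, while Gfap ranked 69th and Vim 81st. Ranked by likeness to Gfap, Serpina3n was 178th, S1pr3 487th and Vim 1045th. With 6 libraries and this many genes, such values are a description only.

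**Figure D4:**
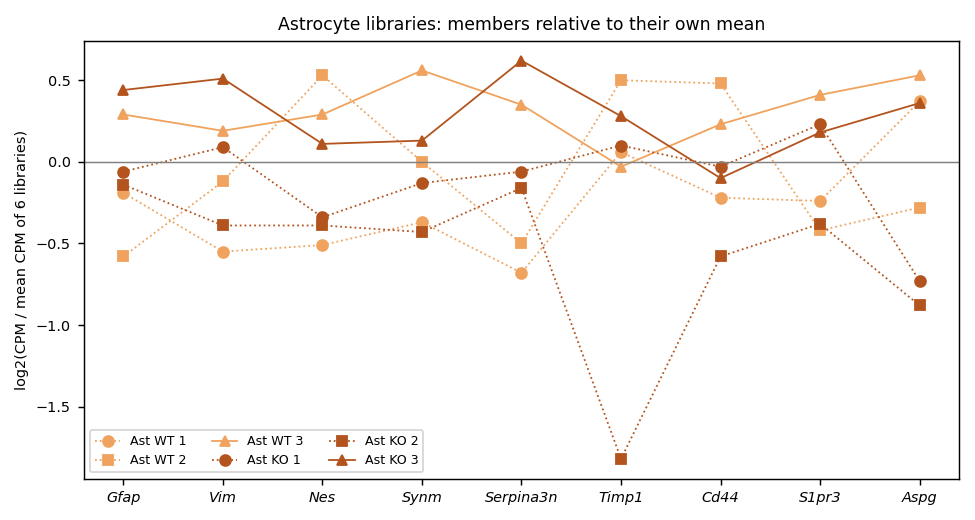
CPM of each member in the 6 astrocyte libraries relative to the member's mean over them, on a log2 scale; lines join the points of 1 library and solid lines are replicates 3. WT and KO replicate 3 are above the mean in Gfap, Vim, Nes, Synm, Serpina3n, S1pr3 and Aspg, and Timp1 in KO replicate 2 is the lowest point at -1.82.

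Genes that work with the members were read from 8 lists, and counted over the genes that passed the filter within each cell type. Among all such genes 31.8% were called higher and 31.8% lower in astrocytes, beside 36.4% and 28.2% of all genes tested. Of 13 other filament genes and linkers, 8 were higher and 2 lower in astrocytes. The neurofilament genes Nefm (log2 fold change 5.58), Nefl (3.50) and Ina (3.26) were among the higher ones. The 6 neuron markers moved with them, summing to 72.4 and 88.2 CPM in WT and KO astrocytes and to 14.4 and 11.8 CPM in microglia, and their part was not tested. Eppk1, a cytolinker at 6.05, passed the filter through astrocytes alone. The nuclear lamin genes Lmnb2 (-1.66) and Lmnb1 (-0.81) were lower. Plec, the linker plectin, was at 578 and 468 CPM in WT and KO astrocytes and at 142 and 77.0 CPM in microglia. In microglia Plec and Nefh had the smallest p of this list for KO against WT, with log2 fold changes of -0.91 and -2.19 (edgeR adjusted p 0.394 and 0.572). In the same comparison 12 of 13 genes tested were below 0, with a median of -0.84, beside 7112 of 14191 over all genes. The other lists ran from 3 of 9 genes below 0 in asparagine metabolism to 5 of 5 among the pan-reactive genes.

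The pan-reactive astrocyte genes outside the members did not share one direction. Of 5 counted, Steap4 (4.49) and Cp (1.93) were higher in astrocytes, and Cxcl10 (-2.30) and Hspb1 (-1.57) lower, on the log2 scale. Osmr, at 6.93, passed the filter through astrocytes alone. Osmr encodes the oncostatin M receptor, Cp ceruloplasmin and Cxcl10 a chemokine. None was called between KO and WT, and Hspb1, a small heat shock protein gene, had the smallest unadjusted p in both cell types (log2 fold change -1.92 in microglia and -1.42 in astrocytes, edgeR adjusted p 0.620 and 0.999).

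Around Cd44, 8 of 13 hyaluronan and ERM genes were higher and 2 lower in astrocytes. The matrix genes Bcan (6.29) and Ncan (5.55) and the linker Ezr (4.25) had the largest differences of the 8. Hapln1, at 7.06, passed the filter through astrocytes alone. Msn, the linker moesin, was lower at -2.40, with 981 and 1070 CPM in WT and KO microglia, and Spp1, the osteopontin gene, was lower at -0.89. The hyaluronan synthases Has1, Has2 and Has3 did not pass the filter. Ezr in microglia (-0.90, edgeR adjusted p 0.572) and Spp1 in astrocytes (0.95, edgeR adjusted p 0.999) had the smallest p for KO against WT.

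Of 14 other TIMP and metalloproteinase genes, 8 were higher and 5 lower in astrocytes. Timp4 (6.94) and Timp3 (5.33), relatives of Timp1, were higher together with the protease Adamts9 (3.51). Mmp16 (5.80) passed the filter through astrocytes alone and Mmp9 (-5.07) through microglia alone. The proteases that were lower included Mmp2 (-3.72), Adamts1 (-3.69) and Adam17 (-2.40). The closest to a genotype difference were Timp4 in microglia (-2.14, edgeR adjusted p 0.655) and in astrocytes (0.53, edgeR adjusted p 0.999).

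Of 13 sphingosine 1-phosphate genes, 4 were higher and 3 lower in astrocytes, shares close to or below those over all genes. Mfsd2a (7.26), Plpp3 (6.28) and the receptor S1pr1 (5.26) were higher, and S1pr1 stood at 511 and 530 CPM in WT and KO astrocytes. The exporter Spns2 (-4.05) and the lyase Sgpl1 (-1.96) were lower. The kinase Sphk1 (5.62) passed the filter through astrocytes alone and the receptor S1pr4 (-6.54) through microglia alone. For KO against WT the smallest p were those of Mfsd2a in astrocytes (0.66, edgeR adjusted p 0.999) and Spns1 in microglia (-0.46, edgeR adjusted p 0.757).

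Of the Serpina3 cluster beside Serpina3n no paralog passed the filter, while Serping1 (5.53), Serpinh1 (4.48) and Serpine2 (2.62) were higher in astrocytes and Serpinf1 (-1.32) was lower. Serping1, the C1 inhibitor, was at 31.4 ± 9.81 CPM in WT astrocytes and 51.3 ± 8.93 CPM in those of KO mice (SD, n = 3), or 0.86 on the log2 scale (edgeR adjusted p 0.999). In asparagine metabolism, Asrgl1, another asparaginase, was higher in astrocytes (4.42) together with Glul (2.33), and Nars (-1.76) and Got2 (-1.10) were lower.

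Of 18 regulators of the filament genes 6 were higher and 9 lower in astrocytes. Sox9 (5.73), Egfr (5.36) and Nfib (4.50) were higher, and Id3 (4.03) passed the filter through astrocytes alone. Socs3 (-5.35), the feedback inhibitor of STAT3, and Klf6 (-3.51), Klf4 (-3.33) and Fosl2 (-2.73) were lower, and Stat3 itself, named after its value was seen, was at -1.10 (edgeR adjusted p 1.03e-05). The smallest p for KO against WT were those of Sox9 in microglia (-1.12, edgeR adjusted p 0.644) and Fosl2 in astrocytes (0.58, edgeR adjusted p 0.999).

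**Figure D5:**
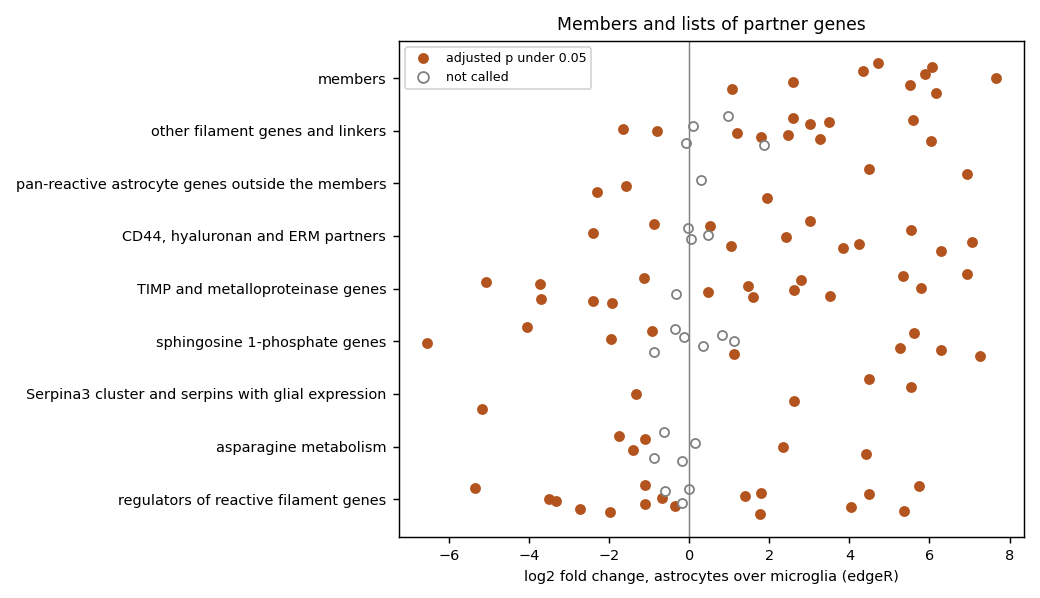
Log2 fold change of astrocytes over microglia for the members and for 8 lists of partner genes, 1 point per gene tested; filled points have an edgeR adjusted p under 0.05, and genes that passed the filter through 1 cell type alone are included. The members run from 1.08 to 7.66, while each partner list holds genes on both sides of 0.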

How the data were processed

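RNA of sorted microglia and astrocytes was sequenced from 6 mice. The submitters' processing notes name STAR 2.7.10b, RSEM 1.3.3, limma and the build GRCm39, without roles; no source used here gives the annotation. The authors deposited estimated counts per gene symbol, 1 table per cell type, with columns that end as RSEM output does per the file headers. All 12 columns of values matched a library by name. SMART-Seq HT and Nextera kits, per the labels' protocols, do not mark strand, so reads of antisense genes cannot be told apart. Values were rounded to whole counts, and CPM divides by the sum of a library's counts. As main test, edgeR 4.0.16's quasi-likelihood test (R 4.3.3) was run with TMM, filterByExpr (minimum count 10) and Benjamini-Hochberg adjustment over all genes tested, called at an adjusted p under 0.05. KO against WT was fitted within each cell type; both other comparisons used 1 fit of the 12 libraries. Scripts were tested on simulated data. Animal numbers in the labels pair each microglia library with an astrocyte library; after subtracting group means, r between such pairs over genes was 0.004 to 0.096. The alternatives were DESeq2 1.42.0, limma voom (limma 3.58.1), DESeq2 size factors, totals without 8 abundant non-coding transcripts, other filters, a minimum log2 fold change of 1, replicate or animal blocks, other sample sets and each replicate left out.

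The 9 members, the gene lists and the tests were chosen with earlier results of these data known. The text names all members. From each list it names genes called in a comparison, at most 4 per direction with the largest change, and otherwise at most 2 with the smallest unadjusted p for KO against WT. It also names the 3 genes most like Gfap and Serpina3n, and markers of other cell types. Some list genes are not reported here. Counts cover amplified copies without molecular identifiers, so intervals from counts hold counting error only. Nothing states that the animals of a group were from separate litters or days.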

Additional observations from a re-analysis of the deposited data

How the results depend on the processing

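Of the 9 members, 0 were called between KO and WT in microglia by edgeR, and the count became 1 with DESeq2 (Synm), 1 without a low-count filter (Gfap) and 1 with all 12 libraries in 1 fit (Synm). For the difference between the cell types it became 1 without a filter (Gfap, 1.64). In astrocytes it was 0 under all alternatives run, and with each replicate left out it was 0 in all 3 comparisons with genotype.

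Over all genes, the 0 calls in microglia became 41 with DESeq2, 121 without a filter, 41 in 1 fit, 30 with the replicate block and 2 without KO replicate 2. In astrocytes 0 became 4, 17 and, without WT replicate 1, 1. For the difference 0 became 62 with DESeq2, 160 without a filter, 1 without WT replicate 2 and 6 without KO replicate 3. At an unadjusted p under 0.05 there were 1053, 373 and 1102 genes. The labels pair no WT with a KO animal, and r between the deviations of same-numbered WT and KO libraries was 0.136, 0.051 and 0.194 for microglia, -0.022, 0.042 and 0.231 for astrocytes. With the replicate block the values of Synm and Gfap in microglia were -1.53 and -1.38 (edgeR adjusted p 0.131 and 0.296). With the animal as the replicate block in the fit of both cell types, 9 members were called between the cell types and 0 for the difference, as without it. The count between the cell types was 8 within WT alone, where Timp1 was lost, and 8 without WT replicate 2, where Cd44 was lost.

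Several values that were not called changed sign; the cause was not tested. With each replicate left out, KO over WT in microglia ran from -0.29 to 0.04 for Vim (positive without WT replicate 1) and from -0.44 to 1.07 for Serpina3n (positive without WT replicate 3, and 0.29 without KO replicate 1), and Serpina3n was 0.34 with voom and 0.22 with the replicate block. In astrocytes it ran from -0.49 to 0.03 for Nes (positive without WT replicate 2) and from -0.30 to 0.10 for Synm (positive without WT replicate 3). The difference between the cell types ran from -0.13 to 1.24 for Nes, -0.16 to 0.74 for Serpina3n, -0.53 to 6.23 for Timp1, -0.38 to 0.18 for Cd44, -3.57 to 4.64 for S1pr3 and -3.48 to 3.25 for Aspg. Its sign changed without WT replicate 1 for Nes, Cd44, S1pr3 and Aspg (0.48), without WT replicate 2 for Aspg (0.03), without WT replicate 3 for Serpina3n and Timp1, without KO replicate 1 for Aspg and without KO replicate 2 or 3 for Cd44 (-0.18). Cd44 was at -0.08 without a filter and without the 8 abundant transcripts. Totals without these transcripts raised Gfap from 570 to 794 CPM in WT astrocytes. Depth limits Timp1, S1pr3 and Aspg, which had 23, 14 and 7 counts over the 6 microglia libraries.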
